A study of Mus musculus with 6 samples.

Results

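Metallothioneins and zinc transporters were described here as a set of 9 genes of zinc handling, out of 19700 genes measured on the arrays. The set holds 3 metallothionein genes (Mt1, Mt2 and Mt3) and the gene of the zinc sensor MTF1 (Mtf1). It also holds 3 genes of the zinc exporter family (Slc30a1, Slc30a3 and Slc30a10) and 2 of the zinc importer family (Slc39a10 and Slc39a14). A gene's value is that of the transcript cluster (the probes that together read 1 transcribed stretch) annotated with its symbol alone, and of the brighter cluster where there were 2. The 9 genes were chosen by their role in zinc handling and on values of these same arrays, since the differences between cKO and control arrays, that of Mt2 among them, were already known. Their differences are therefore given as a description and carry no test.

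The arrays compare 3 Atg7+/+ samples (controls) with 3 Atg7f/f samples (cKO), all from C57BL/6 mice at P16. Atg7 encodes the E1-like enzyme that autophagosome formation needs. Both groups carry a Cre driver. The paper names it Nestin-Cre, which acts in the precursors of both neurons and glia, while the sample labels name NexCre, a driver of cortical excitatory neurons. The labels name the brain as the tissue and the methods name the cerebral cortex. Affymetrix mouse exon 1.0 ST arrays were used, and the authors deposited 1 log2 signal for each cluster and array. Nothing in the sources used here says that each array came from a separate animal, so errors measure the spread between these samples.

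Metallothioneins are small proteins rich in cysteine that bind zinc and copper. MT1 and MT2 are found in many tissues, in the brain mostly in astrocytes, and their genes respond to metals, glucocorticoids and oxidative stress. MT3 is the form characteristic of the brain. When free zinc rises, MTF1 binds metal response elements in promoters and activates the genes of MT1, MT2 and the exporter ZnT1. Most ZnT proteins (Slc30a genes) move zinc out of the cytosol, into vesicles or out of the cell. ZIP proteins (Slc39a genes) move zinc into the cytosol.

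Across the arrays as a whole, pairs of arrays correlated at 0.936 to 0.957 over all clusters. Precision is limited by having 3 arrays a group. Atg7, the targeted gene, had log2 signals of 6.39 to 6.58 in the controls and 5.90 to 6.12 in the cKO arrays. Slc17a7, a gene of cortical excitatory neurons, and Aldoc, an astrocyte gene, had signals above 99.9% and 99.8% of the genes tested. The transthyretin gene Ttr, a marker of the choroid plexus, ranged from 5.38 to 9.88 and was highest in cKO replicate 1 and control replicate 2. Xist had a signal of 9.51 in cKO replicate 1 and at most 4.15 in the other 5 arrays. The Y-linked gene Eif2s3y was at 2.90 in that array and at 5.5 or more in the others. By these genes cKO replicate 1 reads as a female sample and the other 5 as male, so sex was not balanced between the groups. The part of sex in the differences below was not tested. Without cKO replicate 1 the differences given below were 0.26 for Mt1 and 0.30 for Mt2. Because these are bulk samples, fewer cells of a type and less RNA per cell cannot be told apart. Of 19700 genes, limma's test put 0 past an adjusted p of 0.05, and 780 (3.96%) past an unadjusted p of 0.05, with 2.09% higher and 1.87% lower in the cKO arrays. For 1654 genes (8.40%) the 3 control and 3 cKO arrays did not overlap, the cKO arrays being the higher for 4.15% and the lower for 4.24%.

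The promoters of the members are shown first, because MTF1 is known to act on Mt1, Mt2 and Slc30a1 through sites near their starts. In mouse the metallothionein genes lie side by side on chromosome 8, and the RefSeq start of Mt1 lies 6471 bases beyond that of Mt2 (build GRCm38.p6). RefSeq held promoters of 8 of the 9 members, with 10 annotated starts, from 250 bases before to 50 bases after each start. The core of the metal response element was searched for as TGCACNC or TGCGCNC on both strands. Of all 32851 windows of this length, 25.7% held at least 1 match, 1.97% at least 3 and 0.517% at least 4. The 250 bases before the start are shown for Mt2 (chr8:94172368-94172617, plus strand), for Mt1 (chr8:94178839-94179088, plus strand) and for Slc30a10 (chr1:185454598-185454847, plus strand), the 3 members with the most matches. The first 30 bases after the RefSeq start of Mt1 (chr8:94179089-94179118) follow, because they hold 2 more matches. Capitals mark the bases of a match on either strand.
Mt2: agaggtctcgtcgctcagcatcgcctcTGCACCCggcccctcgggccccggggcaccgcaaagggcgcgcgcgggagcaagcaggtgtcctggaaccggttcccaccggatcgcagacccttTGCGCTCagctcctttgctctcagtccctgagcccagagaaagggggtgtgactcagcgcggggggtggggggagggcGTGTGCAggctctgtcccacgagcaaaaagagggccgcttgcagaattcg
Mt1: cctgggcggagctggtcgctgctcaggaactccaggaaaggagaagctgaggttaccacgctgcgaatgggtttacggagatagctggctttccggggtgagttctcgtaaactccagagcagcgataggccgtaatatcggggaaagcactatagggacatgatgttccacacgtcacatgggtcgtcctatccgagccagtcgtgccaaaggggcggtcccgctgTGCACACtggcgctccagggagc
Mt1 after the start: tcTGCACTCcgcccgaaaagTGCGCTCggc
Slc30a10: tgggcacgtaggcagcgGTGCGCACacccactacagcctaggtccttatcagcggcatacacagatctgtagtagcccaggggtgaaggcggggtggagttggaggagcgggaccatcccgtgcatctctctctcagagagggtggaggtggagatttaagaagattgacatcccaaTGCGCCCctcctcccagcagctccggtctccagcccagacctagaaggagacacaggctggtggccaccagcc

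The Mt2 window held 4 matches, beginning at positions -223, -128, -50 and 5 from the start. The Mt1 window held 3, at -23, 3 and 21. Slc30a10, whose product exports manganese and is named as a zinc transporter from its family, also held 3, of which those at -233 and -232 overlap on opposite strands. Slc30a1 held 2 matches, Mt3 held 1, and Slc30a3 held 1 before the first of its 2 starts and 0 at the other. The windows of Mtf1 and Slc39a10 held 0. A match is a description of letters, and a window with none says nothing of MTF1 binding elsewhere. Positions count from the annotated RefSeq start, and whether transcription began there in these samples was not tested. The TATA box, searched for as TATAAA, was present in 13.6% of all windows and had 0 matches in those of Mt1 and Mt2. The positions and counts of Mt1 and Mt2 thus hold for the annotated start only. Matches further than 50 bases after that start were not searched for, so the counts are of these windows alone. The core of the antioxidant response element, TGACNNNGC, which NRF2 and related factors bind, matched once in Mt2, at -79, and once in Slc30a1, at -82, and was present in 12.4% of all windows.

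**Figure D1:**
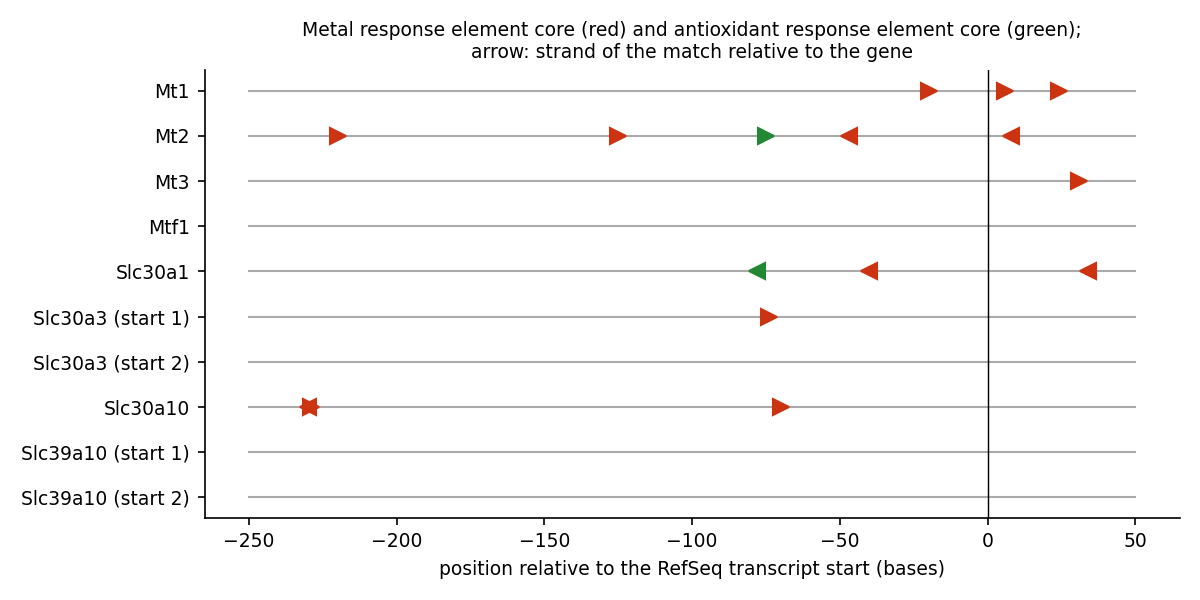
Matches to the metal response element core (red) and the antioxidant response element core (green) along the promoter window of each member, by position from the RefSeq start in bases, with arrows giving the strand. Mt2 held 4 red matches and Mt1 and Slc30a10 held 3 each, and for Slc30a10 a pair of them overlaps.

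Mt2 and Mt1 had the largest differences of the 9 genes, and for both the lowest cKO array lay above the highest control array. The log2 signal of Mt2 was 6.05, 5.86 and 5.65 in the control arrays, replicates 1 to 3, against 6.32, 6.17 and 6.13 in the cKO arrays, in the same order of replicates. Its mean was 5.85 ± 0.20 (SD, n = 3) in the controls and 6.21 ± 0.10 (SD, n = 3) in the cKO arrays. The difference of 0.35 on the log2 scale (standard error 0.12) is a fold change of 1.28. The groups were set apart by 0.086, the gap between control replicate 1 and cKO replicate 3, which is smaller than the SD of the controls. Of all genes tested, 1.69% had a larger positive difference.

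Mt1 followed the same order of arrays in the cKO group, with replicate 1 the highest and replicate 3 the lowest. Its log2 signal was 7.06, 7.08 and 6.78 in the control and 7.36, 7.25 and 7.21 in the cKO arrays, so the groups were apart by 0.13. Its mean was 6.97 ± 0.17 (SD, n = 3) for the controls, beside 7.27 ± 0.077 (SD, n = 3) for the cKO arrays. The difference of 0.30 (standard error 0.10) is a fold change of 1.23, and 2.51% of all genes had a larger positive difference. For both genes control replicate 3 was the lowest array of the 6, and without it the differences were 0.20 for Mt1 and 0.25 for Mt2. Mt1 and Mt2 encode similar proteins, and whether probes of one gene also bound transcripts of the other was not tested, since probe sequences were not used here.

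Mt3, the brain form, overlapped fully between the groups. Its log2 signal was 8.30, 7.99 and 7.89 in the control and 8.15, 7.95 and 8.06 in the cKO arrays. The difference was -0.01 (standard error 0.12), and it ranged from -0.09 to 0.11 when single arrays were left out. The control array that was highest for Mt3, replicate 1, was also the highest for Mt2.

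**Figure D2:**
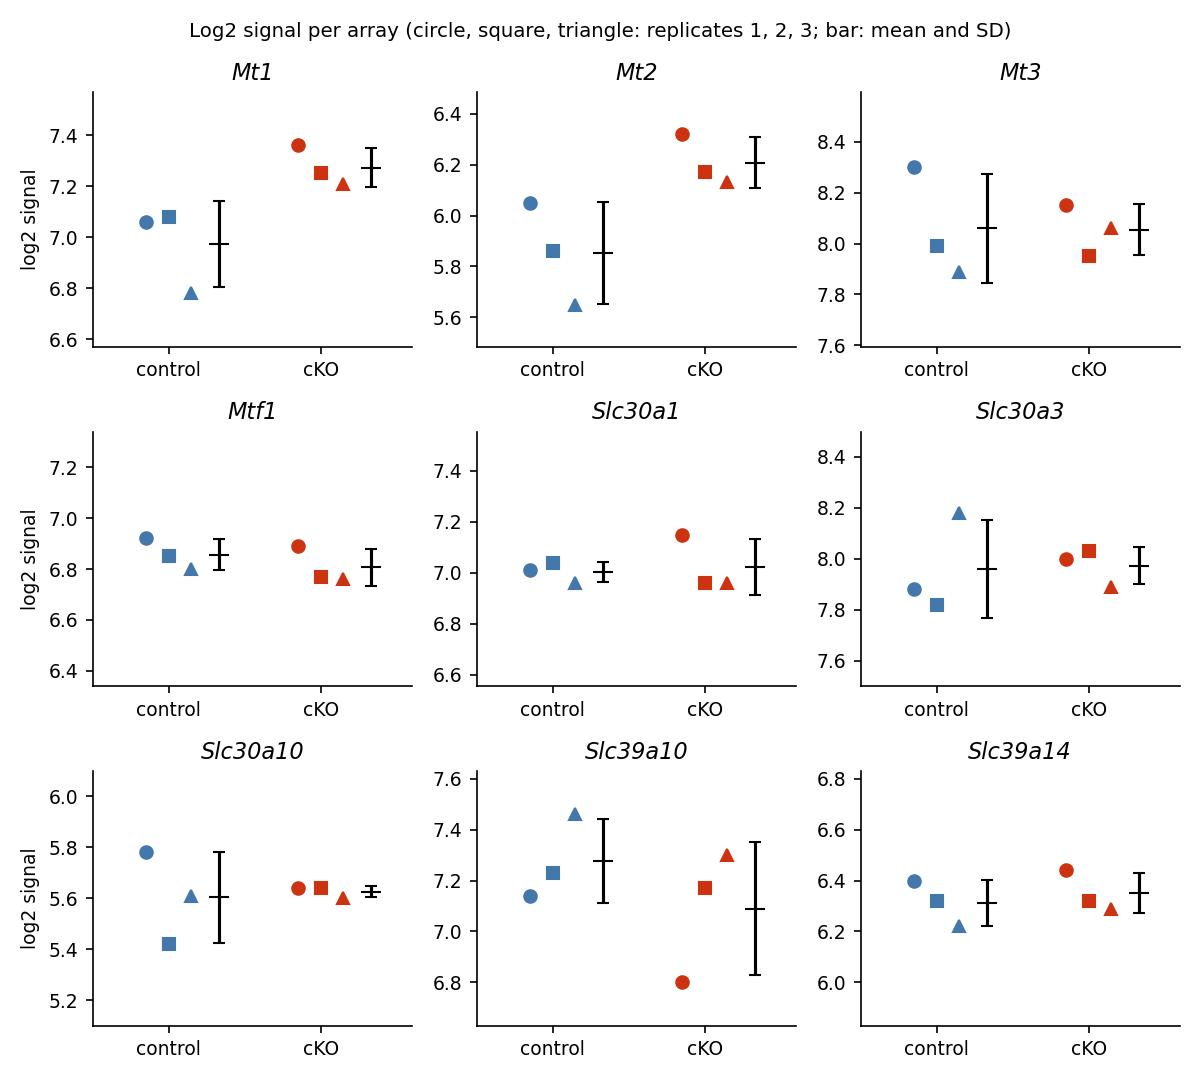
Log2 signal of each of the 9 genes in the 3 control (blue) and 3 cKO (red) arrays, with the mean and SD beside each group and every axis spanning 1 log2 unit. For Mt1 and Mt2 all cKO arrays lie above all control arrays, while the other 7 genes overlap between the groups.

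Because arrays can be bright or dim as a whole for a group of genes, the metallothioneins were also set against each other within each array. Only the change between arrays is read from such values, since the offset between 2 genes depends on their probes. Mt2 minus Mt3 was -2.25, -2.13 and -2.24 in control arrays, against -1.83, -1.78 and -1.92 in cKO arrays. These values had SDs of 0.068 and 0.072, against 0.20 and 0.10 for Mt2 alone, and the groups were apart, with means that differed by 0.36. Mt1 minus Mt3 was -1.24, -0.91 and -1.11 in control arrays, against -0.79, -0.70 and -0.85 in cKO arrays, also apart. Here the SDs were 0.167 and 0.074, hardly changed from 0.167 and 0.077 for Mt1 alone. Mt1 minus Mt2 was 1.01, 1.22 and 1.13 in control arrays, against 1.04, 1.08 and 1.08 in cKO arrays, which overlapped. Relative to Mt3 on the same array, Mt1 and Mt2 were thus higher in every cKO array, while the distance between Mt1 and Mt2 overlapped between the groups. Mt1 and Mt2 were chosen with their differences known, and Mt3 differed by -0.01. These values therefore restate the same contrast and are no independent support.

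**Figure D3:**
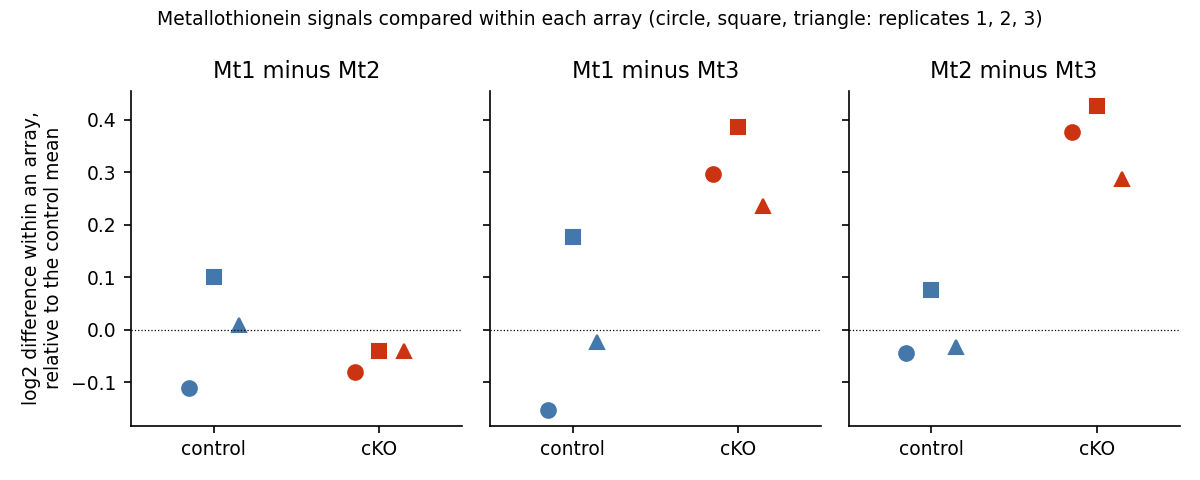
Difference in log2 signal between 2 metallothionein genes within each array, relative to the control mean, for control (blue) and cKO (red) arrays. The control and cKO arrays overlap for Mt1 minus Mt2 and do not overlap for Mt1 minus Mt3 and Mt2 minus Mt3.

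Mtf1, the gene of the zinc-sensing activator, had log2 signals of 6.92, 6.85 and 6.80 in the control and 6.89, 6.77 and 6.76 in the cKO arrays. The difference of -0.05 (standard error 0.077) was within the spread of either group. A second, dimmer cluster of Mtf1 differed from this. It was at 6.37, 6.28 and 6.34 in the control and 6.10, 6.13 and 5.67 in the cKO arrays, lower in every cKO array, with a difference of -0.37. With both clusters averaged the difference of Mtf1 was -0.21. Which part of the gene each cluster covers was not examined here.

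Of the exporters, Slc30a1 encodes ZnT1, which moves zinc out across the plasma membrane and is a known MTF1 target. Its log2 signal was 7.01, 7.04 and 6.96 in the control and 7.15, 6.96 and 6.96 in the cKO arrays, so cKO replicate 1 alone lay above the controls. The difference was 0.02 (standard error 0.082), and without cKO replicate 1 it was -0.04. Slc30a3 encodes ZnT3, which loads zinc into synaptic vesicles of glutamatergic neurons. It was at 7.88, 7.82 and 8.18 in the control and 8.0, 8.03 and 7.89 in the cKO arrays, all of the latter within the range of the controls. The difference was 0.01 (standard error 0.11). Slc30a10 was at 5.78, 5.42 and 5.61 in the control and 5.64, 5.64 and 5.60 in the cKO arrays, with a difference of 0.03 (standard error 0.10) and again no cKO array outside the control range. Without 1 array in turn, Slc30a3 lay between -0.06 and 0.12 and Slc30a10 between -0.06 and 0.11.

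Of the importers, Slc39a10 encodes ZIP10, a plasma membrane zinc importer whose gene MTF1 is known to repress. It had the largest negative difference of the 9 genes. Its log2 signal was 7.14, 7.23 and 7.46 in the control and 6.80, 7.17 and 7.30 in the cKO arrays. The groups overlapped, and the difference of -0.19 (standard error 0.15) was of the size of the SDs, 0.16 and 0.26. The value of cKO replicate 1 set most of it, since without that array the difference was -0.04. Of all genes tested, 7.38% had a lower value. Slc39a14 encodes ZIP14, which imports manganese, iron and zinc. It was at 6.40, 6.32 and 6.22 in the control and 6.44, 6.32 and 6.29 in the cKO arrays, with a difference of 0.03 (standard error 0.083), and the groups overlapped.

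Over the 9 members, 6 were higher and 3 lower in the mean, with a median difference of 0.02, beside a median of -0.006 over all genes tested. The differences of 6 of the 9 genes were smaller than 0.06 in size, as were those of 44.9% of all genes. Mt1 and Mt2 were the 2 members whose groups did not overlap, both higher, where the background for higher genes is 4.15%. Since the members were chosen with this contrast known, nothing is read from that count. The mean signals of the members lay above 50.3% (Slc30a10) to 95.0% (Mt3) of the genes tested.

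The other metallothionein, ZnT and ZIP genes were taken as whole families, 20 genes in all. Of these, 10 had a higher and 10 a lower mean, with differences from -0.22 to 0.24. None passed an adjusted p of 0.05 from limma, 1 had an unadjusted p under 0.05, and the groups were apart for 2 (10%), close to the 8.40% of all genes. Mt4, the metallothionein of stratified epithelia, was dim and overlapped between the groups, with a difference of -0.17 (adjusted p = 1 from limma).

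Slc30a5, whose product ZnT5 supplies zinc to enzymes of the secretory pathway, had the lowest p of the 20. Its log2 signal was 6.52, 6.55 and 6.57 in the control and 6.76, 6.80 and 6.79 in the cKO arrays, so the groups were apart and each was tight. The control mean of 6.54 ± 0.024 (SD, n = 3) stood beside a cKO mean of 6.78 ± 0.022 (SD, n = 3), a difference of 0.24 (standard error 0.067, unadjusted p = 0.00953 and adjusted p = 1 from limma). Its other, dimmer cluster ran the opposite way, at 5.02, 4.62 and 4.54 in the control and 4.77, 4.38 and 4.42 in the cKO arrays, a difference of -0.20, and with both averaged the difference was 0.02. Slc30a6, which encodes the partner of ZnT5, was at 6.21, 6.00 and 6.00 in the control and 6.45, 6.20 and 6.06 in the cKO arrays and overlapped by 1 control array (unadjusted p = 0.215 and adjusted p = 1 from limma). Slc30a7, the third ZnT gene of the secretory pathway, differed by -0.16 (adjusted p = 1 from limma), while another of its clusters differed by 0.28.

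Among the ZIP genes Slc39a13 was the one whose groups were apart. It encodes ZIP13, a zinc transporter of intracellular membranes, and was at 6.75, 6.65 and 6.65 in the control and 6.61, 6.55 and 6.54 in the cKO arrays. The difference was -0.12 (standard error 0.072, unadjusted p = 0.134 and adjusted p = 1 from limma). Over the whole families, the median difference was 0.02 for 10 ZnT genes and -0.02 for 14 ZIP genes. Of these, 8 ZnT genes had a higher and 2 a lower mean, and 6 ZIP genes a higher and 8 a lower mean.

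**Figure D4:**
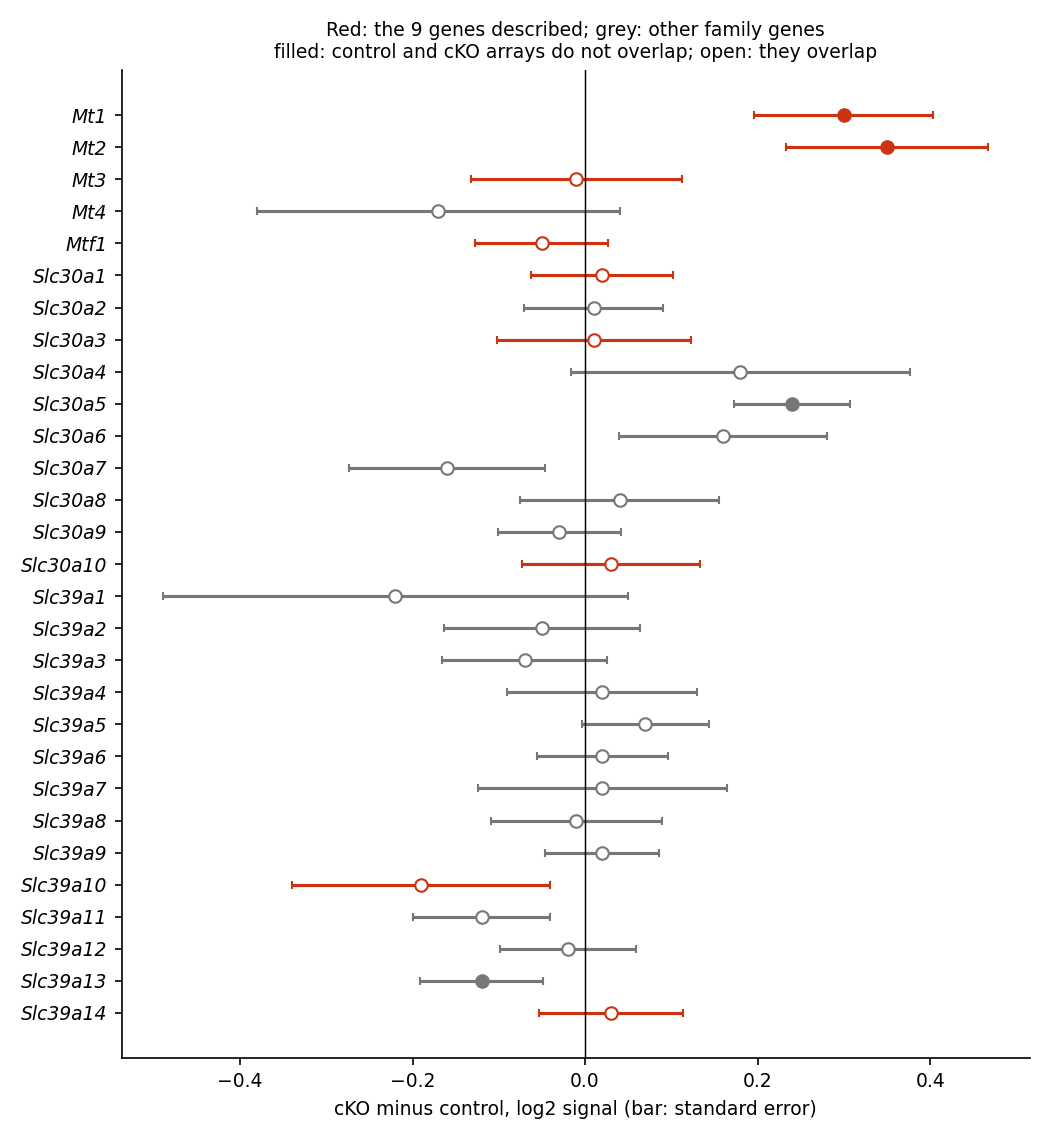
Difference between cKO and control arrays in log2 signal, with its standard error, for the 9 members (red) and the other metallothionein, ZnT and ZIP genes (grey). Filled points, those of Mt1, Mt2, Slc30a5 and Slc39a13, have no overlap between the groups.

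MTF1 has further reported targets. They were listed with Mtf1 itself, with genes that MTF1 activates and with Slc39a10, which it is known to repress. Counts and a median over such a mixed list do not measure the activity of MTF1. Of 10 genes in a list of Mtf1 and its reported targets, 5 had a higher and 5 a lower mean, with a median of -0.01, and the groups were apart for Mt1 and Mt2 alone (20%, beside 8.40% of all genes), both of them members chosen with this contrast known. Selenow, which encodes a selenoprotein, differed by -0.11, Ndrg1, a stress-responsive gene, by -0.07 and Csrp1, a LIM domain gene, by 0.04 (adjusted p = 1 from limma for each). Metallothioneins also bind copper. Of 8 measured genes of copper handling, 4 had a higher and 4 a lower mean. The groups were apart for 1 of the 8 (12.5%, beside 8.40% of all genes). Slc31a2, which encodes the copper transporter CTR2, was at 5.20, 4.97 and 4.81 in the control and 4.48, 4.44 and 4.70 in the cKO arrays, lower in every cKO array. Its difference was -0.45 (standard error 0.12, unadjusted p = 0.00845 and adjusted p = 1 from limma). Of 6 genes of manganese handling, to which Slc30a10 and Slc39a14 belong, 3 had a higher and 3 a lower mean, from -0.06 to 0.09.

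Genes that work with ZnT3 at the synapse were listed with Slc30a3, among them the subunits of AP-3, the adaptor that sorts ZnT3 to synaptic vesicles. Of these 10 genes, 6 had a higher and 4 a lower mean, with a median of 0.02. The groups were apart for 1 of the 10 (10%, beside 8.40% of all genes). Slc17a7, the vesicular glutamate transporter found with ZnT3, differed by -0.21 (unadjusted p = 0.0656 and adjusted p = 1 from limma) and overlapped between the groups. Gpr39, the gene of a receptor that senses released zinc, was higher in every cKO array by at least 0.0042, with a difference of 0.14 (unadjusted p = 0.139 and adjusted p = 1 from limma).

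Glucocorticoids are known to induce Mt1 and Mt2, and astrocytes to express them, so genes of both kinds were measured beside them. Of 9 measured genes that respond to glucocorticoids, 9 had a higher mean in the cKO arrays, as had 47.5% of all genes, with a median of 0.14. Their mean log2 signal was 6.42 to 6.48 in the controls and 6.53 to 6.65 in the cKO arrays, without overlap. The groups were apart for 3 of them (33.3%, beside 4.15% of all genes apart and higher), Pdk4, a kinase gene of glucose metabolism, Sgk1, a kinase gene, and Errfi1, a feedback inhibitor of the EGF receptor. Pdk4 differed by 0.25 and Sgk1 by 0.20 (unadjusted p = 0.0155 and 0.0309, adjusted p = 1 from limma for each). The list was chosen with earlier results of these data known, so nothing is read from these counts. The part of these genes in the values of Mt1 and Mt2 was not tested.

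Of 11 measured astrocyte markers, 10 had a higher mean, with a median of 0.09. Their mean log2 signal was 7.67 to 7.71 in the controls and 7.71 to 7.86 in the cKO arrays, so the nearest arrays of both groups stood at the same rounded value. The groups were apart for 1 of the 11 markers (9.09%, close to the 8.40% of all genes). This was Gjb6, which encodes the astrocyte gap junction protein connexin 30, with a difference of 0.41 (unadjusted p = 0.00865 and adjusted p = 1 from limma). Gfap differed by 0.25 with overlap (adjusted p = 1 from limma). Set against the mean of these markers within each array, Mt1 was higher by 0.19 in the cKO group without overlap, and Mt2 by 0.24 with overlap. For Mt1 the nearest arrays were at -0.61 and -0.58, and control replicate 3 was the lowest at -0.92. Mt1 and Mt2 were chosen with their differences known, and the mean of the markers differed by 0.11. What is left within arrays thus restates the known contrast and is no independent support. The part of astrocytes in the values of Mt1 and Mt2 was not tested.

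Markers of other cells varied more between arrays. The 6 measured choroid plexus markers had a mean of 4.94 to 6.16 in the controls and 4.98 to 6.33 in the cKO arrays, highest in the 2 arrays with the highest Ttr. Without those 2 arrays the difference was 0.31 for Mt1 and 0.30 for Mt2. The 6 meningeal markers had a mean of 5.81 to 5.92 in the controls and 5.89 to 6.01 in the cKO arrays. The 11 measured markers of excitatory neurons had a mean of 8.04 to 8.26 in the controls and 7.80 to 8.18 in the cKO arrays. This mean was lowest in cKO replicate 1, which was also the lowest array for Slc39a10. By marker, 4 had a higher and 7 a lower mean in the cKO arrays, with a median difference of -0.08. For 3 of the 11 (27.3%, beside 4.24% of all genes) every cKO array was below the controls, at differences of -0.44 for Neurod6, a transcription factor gene, -0.30 for Bcl11b, a gene of deep-layer projection neurons, and -0.23 for Nrgn, which encodes neurogranin (unadjusted p = 0.0243, 0.0177 and 0.0583, adjusted p = 1 from limma for each). The gap between the groups was 0.023 for Neurod6, 0.18 for Bcl11b and 0.0090 for Nrgn. For Neurod6 and Nrgn this gap is smaller than the SD of either group. This list too was chosen with earlier results of these data known, so nothing is read from the count. The part of these markers in the values of Slc30a3 and Slc39a10 was not tested. The 6 measured oligodendrocyte markers were lower in the mean by 0.29, with 8.29 to 8.63 in the controls and 7.96 to 8.44 in the cKO arrays. Of the 4 dentate gyrus markers, listed because ZnT3 is abundant in mossy fibres, 4 had a higher mean, with a median of 0.04. The 6 interneuron, 6 microglial and 8 endothelial markers measured had medians of -0.06, 0.01 and 0.03, and their groups overlapped for every marker.

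**Figure D5:**
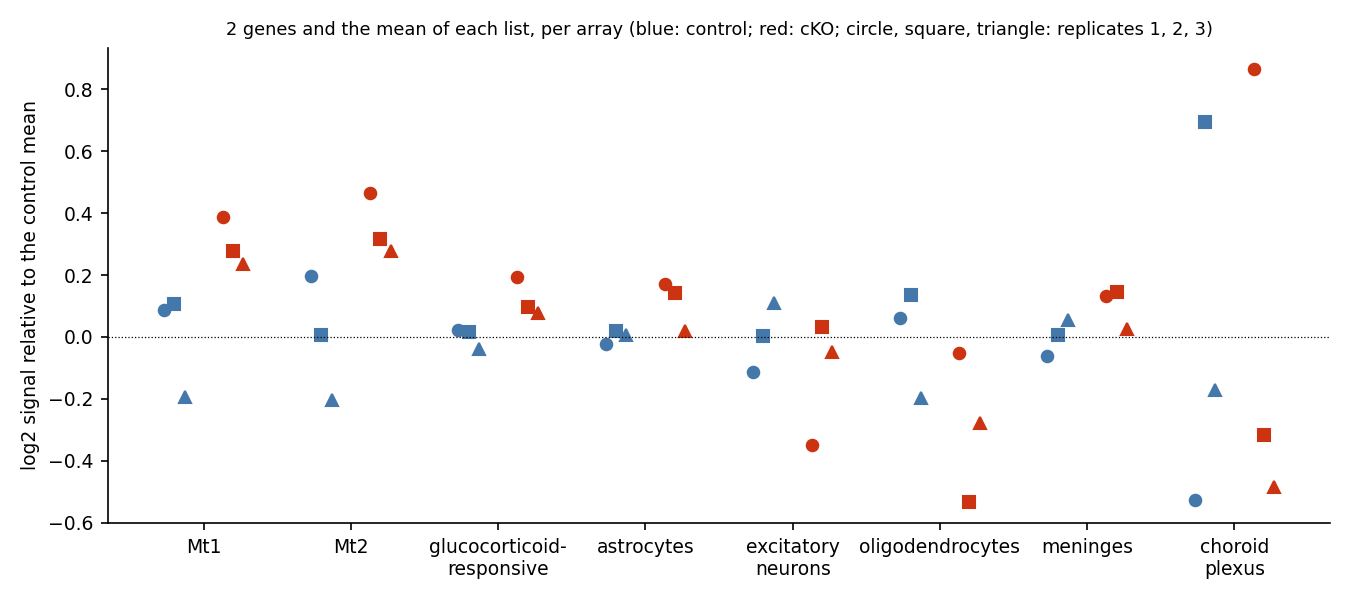
Log2 signal relative to the control mean in each control (blue) and cKO (red) array, for Mt1, Mt2 and the mean of 6 lists of genes. The mean of the choroid plexus markers stands out in control replicate 2 and cKO replicate 1. The mean of the glucocorticoid-responsive genes is higher in all cKO arrays than in any control array.

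Genes with a profile over the 6 arrays like that of Mt2 were found by the Euclidean distance between log2 values, each gene centred on its own mean. Of 19699 other genes the 5 closest were Meis3 (0.114), Mc4r (0.126), Sat1 (0.149), Mt1 (0.167) and 5830408C22Rik (0.170), where a flat profile lies at 0.536. Meis3 is a homeobox gene, Mc4r encodes the melanocortin 4 receptor, and Sat1 encodes an enzyme of polyamine breakdown. Their differences were 0.31 for Meis3, 0.37 for Mc4r, 0.33 for Sat1 and 0.23 for 5830408C22Rik, and they share the contrast by which they resemble Mt2. In the opposite direction Mt2 was the gene ranked 11 in closeness to Mt1.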

How the data were processed

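For each of 6 arrays the deposited table gives 1 log2 signal for every one of 101175 transcript clusters, which the authors had processed with GeneSpring. The sources used here state neither the normalization nor the genome build. A deposited table of the authors' own comparison (p-values, directions and fold changes) was not used. The array annotation pairs 22773 clusters with 1 symbol. A gene with several clusters was represented by its brightest, and Atg7, which shares its cluster with another gene, was kept. No filter on dim genes was applied. Differences are cKO minus control, with two-sided p-values from limma 3.58.1 (functions lmFit and eBayes, run in R 4.3.3) over all 19700 genes, with Benjamini-Hochberg adjustment, at a threshold of 0.05. The test was checked on simulated data. The members and the gene lists were chosen with earlier results of these data known. Members are given in full. Of the other genes of the families, the text names those whose groups do not overlap or whose unadjusted p is under 0.05, with Mt4, of the pathway lists at most the 3 genes, and of the marker lists at most the 2 genes, with the lowest unadjusted p, and the 5 genes closest to Mt2. Slc30a6, Slc30a7, Selenow, Ndrg1, Csrp1, Nrgn, Aldoc, Ttr, Xist and Eif2s3y fall outside this rule and were named after their values were seen. Promoters are from RefSeq, build GRCm38.p6. Scalings, filters, clusters averaged, a replicate block, other estimates of the spread and the omission of arrays were tried as alternatives.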

Additional observations from a re-analysis of the deposited data

How the results depend on the processing

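Of 117 values of the 9 members under 13 alternatives (11 planned and 2 added after seeing the data), 116 moved by less than the SD between replicates. The -0.21 of Mtf1 with the clusters averaged moved by more. Most of this was fixed in advance, so the count is no measure of stability. Leaving out 1 array cannot move a difference by as much as this SD. The dim filter and the block cannot move it at all, and averaging clusters can move only Mtf1. Mt1 lay between 0.20 and 0.35, Mt2 between 0.25 and 0.45 and Slc39a10 between -0.29 and -0.04. Groups that do not overlap cannot come to overlap when arrays are left out, so for Mt1 and Mt2 only the 2 rescalings, under which they did not overlap, could have changed this. Mt3, Slc30a1, Slc30a3, Slc30a10 and Slc39a14 changed sign, at 2 decimals, in 2 to 5 of the 13, with values between -0.09 and 0.12. For none of these was the cause tested. With the replicate number as a block the count past the adjusted p was 0. In this balanced design the block cannot move a difference, so the medians of the metallothionein, ZnT and ZIP lists were 0.15, 0.02 and -0.02 by construction. The correlations of same-numbered deviations were 0.307, 0.037 and 0.166, and those of other pairs lay between -0.271 and 0.164. Whether same-numbered samples share more than a number was not tested. The block moved the count at an unadjusted p under 0.05 from limma from 780 to 1157. The count past the adjusted p was 1, which was not a member, without the 25% dimmest genes and with the clusters averaged, and 0 under every other alternative. The count of genes whose groups do not overlap was 2971 to 5294 with 1 array left out, where fewer arrays overlap less often. It was 7594 without control replicate 2 and cKO replicate 1, and 7418 without both arrays numbered 1, which were chosen after seeing the data.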
